A study of Rattus norvegicus with 12 samples.

Results

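The potassium channel genes were read from 12 one-colour arrays of pituitaries from Wistar rat fetuses at gestational day 18. A gene entered the set if its name on the array began with Kcn followed by a family letter and, usually, a number, which covers pore-forming and auxiliary subunits. Of 26258 genes on the array, 92 carried such a name, through 129 probes. A probe was kept where 3 or more of the 12 arrays had it well above background, and the brightest kept probe stood for its gene. This left 78 of the 92 genes, 57 of them well above background on all 12 arrays. Among the other 14 were Kcna10, Kcna3, Kcne1, Kcnf1, Kcng4, Kcnj10, Kcnj15, Kcnj4, Kcnj6, Kcnk15, Kcnk9, Kcnmb1 and Kcnmb3, and 10 of the 14 had no probe well above background on any array.

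The fetuses were males and females whose dams had or had not received TCDD (a dioxin, ligand of the aryl hydrocarbon receptor), and each of the 4 groups (male control, male TCDD, female control, female TCDD) held 3 arrays. The controls' vehicle, the TCDD dose and its day are not stated in the labels, nor is it stated whether an array stands for 1 gland or several, or which fetuses shared a dam. The p-values below therefore measure only the spread between these arrays. A level is the log2 processed intensity minus the array's 75th percentile, so 0 is the 75th percentile, and levels of different probes were not compared with each other. In a whole gland, fewer cells of a type and less RNA per cell cannot be told apart.

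Potassium channels let potassium leave the cell, which pulls the membrane towards rest. Voltage-gated channels of the Kv families open on depolarization and end the action potential, calcium-activated channels open as calcium enters, inward rectifiers and tandem-pore leak channels hold the resting potential, and silent and auxiliary subunits alter the channels they join. In pituitary endocrine cells these channels set the pattern of spontaneous spikes and calcium entry and so the release of hormone. In sensory neurons the shaker-type Kcna channels, the M-current channels (such as Kcnq3 and Kcnq5) and the leak channels TRESK (Kcnk18), TREK (Kcnk2 and Kcnk10) and TRAAK (Kcnk4) restrain firing.

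The arrays did not differ only by group. Avil encodes advillin, an actin-binding protein that marks sensory ganglion neurons. Its level lay between 0.18 and 1.63 on 6 arrays (male control 2, male TCDD 1 and 2, female control 2, female TCDD 1 and 3) and between -3.68 and -3.32 on the other 6. Of a list of 24 sensory ganglion genes that includes Avil, 23 were kept. Of these, 21 were higher on each of the same 6 arrays than on any of the other 6, with Avil so by construction. The mean level of that list was 0.21 to 1.56 on those 6 arrays and -3.15 to -2.64 on the rest. The mean of 25 pituitary endocrine genes lay between -1.79 and -0.42 on the 12 arrays and did not separate them, as 0 of its genes stood apart in this way. The higher-Avil arrays included 4 of the 6 exposed and 2 of the 6 control arrays. Of 6 aryl hydrocarbon receptor target genes that were kept, all had a positive TCDD difference over both sexes and 3 of them passed the test described below. The share of spots well above background was 75.1% to 78.4% on the 12 arrays.

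Before the values, 5 of the 60-base probes are shown: the probe of Kcna1, whose level differed most between the higher-Avil arrays and the rest; the probe of the leak channel Kcnk4, with a probe of the related Kcnk2 that is not its brightest and on which its TCDD values do not rest; the probe of Kcnn1, whose match crosses a gap in the genome; and a probe of Kcnma1 that is not its brightest and behaved unlike it. Capitals mark the longest run of bases shared by the Kcnk4 and Kcnk2 probes shown, GCCTACTT.
Kcna1 (chr4:163012003-163012062, minus strand): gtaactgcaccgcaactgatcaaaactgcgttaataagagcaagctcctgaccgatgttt
Kcnk4 (chr1:209603384-209603443, minus strand): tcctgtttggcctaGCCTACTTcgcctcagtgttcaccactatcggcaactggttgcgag
Kcnk2 (chr13:105419270-105419329, minus strand): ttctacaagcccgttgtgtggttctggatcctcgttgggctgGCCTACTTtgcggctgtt
Kcnn1 (chr16:19102125-19103592, plus strand): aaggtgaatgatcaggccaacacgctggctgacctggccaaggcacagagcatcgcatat
Kcnma1 (chr15:949056-949115, plus strand): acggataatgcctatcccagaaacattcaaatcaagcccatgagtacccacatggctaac
Coordinates are those of rn4, the build named in the file headers. The Kcnn1 probe spans 1468 bases of the genome, so it lies across an exon junction. The exon or UTR in which the other probes lie was not analysed here. Over all 3003 pairs of the 78 probes used, the longest run of bases that 2 genes shared was 12 of 60. Of 82 Kcn probes with both a position and a RefSeq strand, 78 lay in the gene's own orientation.

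Of the 78 genes, 20 were higher on each of the 6 higher-Avil arrays than on any of the other 6, which is 25.6% against 7.91% of all 19347 genes kept. A single gene, Kcnj8, lay wholly below, 1.28% against 7.85% of all genes. Avil was used to order the arrays, and these counts are a description with no test. With genes that were well above background on all 12 arrays alone, 11 of 57 lay above (19.3% against 8.02%). The 20 genes held 6 of 15 Kv1 to Kv4 genes, 2 of 4 M-current genes, 2 of 8 genes of Kv10 to Kv12, 2 of 7 calcium- or sodium-activated channel genes, 3 of 11 tandem-pore leak genes, 3 of 13 auxiliary subunits, 1 of 8 silent subunits and 1 of 11 inward rectifiers. In the map of the genes by array, these rows change colour at the line between the arrays.

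**Figure D1:**
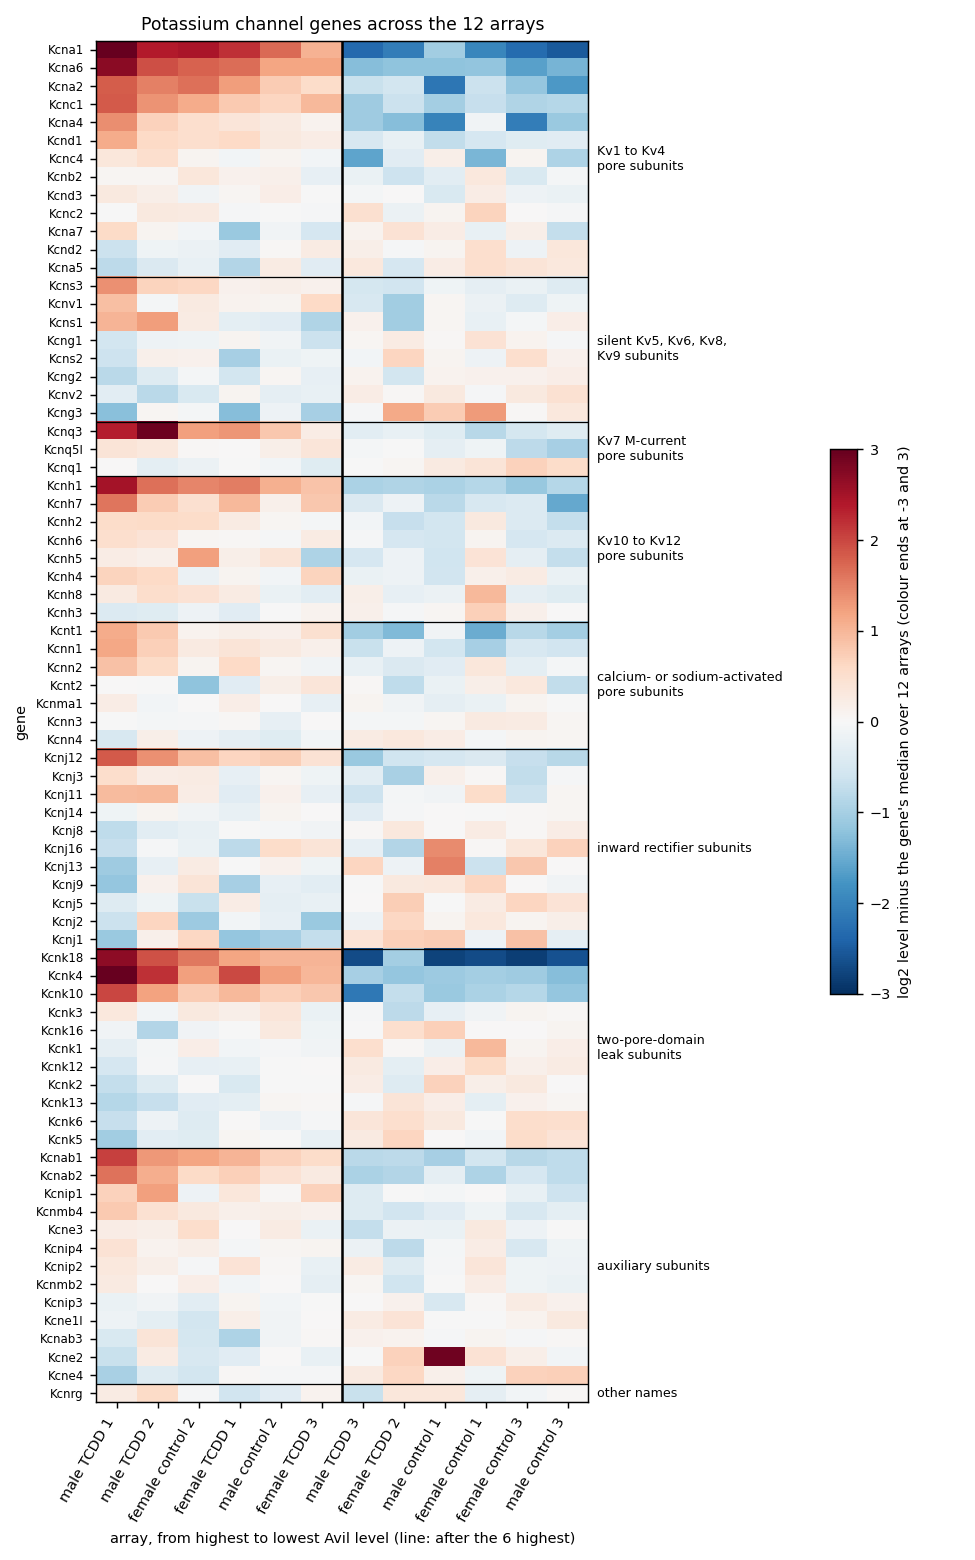
Level of 75 of the 78 potassium channel genes (rows, grouped by family) on each of the 12 arrays (columns, from the highest to the lowest Avil level), as the log2 level minus the gene's median over the 12 arrays. Rows such as Kcna1, Kcna6, Kcnk18 and Kcnh1 are red on all 6 arrays left of the line and blue on all 6 right of it, and Kcne2 is dark red on male control 1.

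Among voltage-gated pore genes, Kcna1 encodes a shaker-type channel that acts at axons and nerve terminals and showed the widest difference of medians, 4.49. Its level was -3.90, -1.17 and -5.38 on the control and 0.34, -0.48 and -5.21 on the exposed male arrays, and -4.82, -0.43 and -5.18 on the control and -0.67, -4.95 and -1.83 on the exposed female arrays (replicates 1 to 3 each). Each group thus held both high and low arrays, and all 4 groups overlapped. The TCDD difference over both sexes was 1.35 (SE 1.28), with an adjusted p of 0.70 from limma. It was -0.26 without the 6 higher-Avil arrays, -0.36 with the Avil level as a covariate and 3.26 with slide as a block, with an adjusted p between 0.15 and 1 over all 26 alternatives.

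Kcna6, a partner of Kcna1 in the same channel family, was -2.67, -0.26 and -2.86 in control males against 1.25, 0.47 and -2.74 with TCDD. In females it was -2.64, 0.32 and -3.08 against 0.22, -2.66 and -0.26. Kcna2, which co-assembles with Kcna1 beside the nodes of myelinated axons, lay between -4.19 and -2.92 on the 6 higher-Avil arrays and between -6.91 and -5.31 on the rest. Kcna4, a fast-inactivating channel, lay between -5.49 and -4.21 against -7.67 and -5.72. Of the lower-Avil arrays, only 1 had Kcna4 well above background. These channels moved together across arrays, high on the same 6 whether the fetus was exposed or not. Kcnc1, a fast Kv3 channel of rapidly firing neurons, and Kcnd1, an A-type channel, had differences of medians of 1.93 and 0.98.

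Neighbours on a chromosome differed. The probe of Kcna1 on chromosome 4 lies between those of Kcna5 (chr4:162896330-162896389) and Kcna6 (chr4:163119201-163119260), all 3 within 223 kb. Kcna5, a delayed rectifier found in muscle and other non-neuronal cells, had a median 0.71 lower on the higher-Avil arrays, with levels that overlapped.

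**Figure D2:**
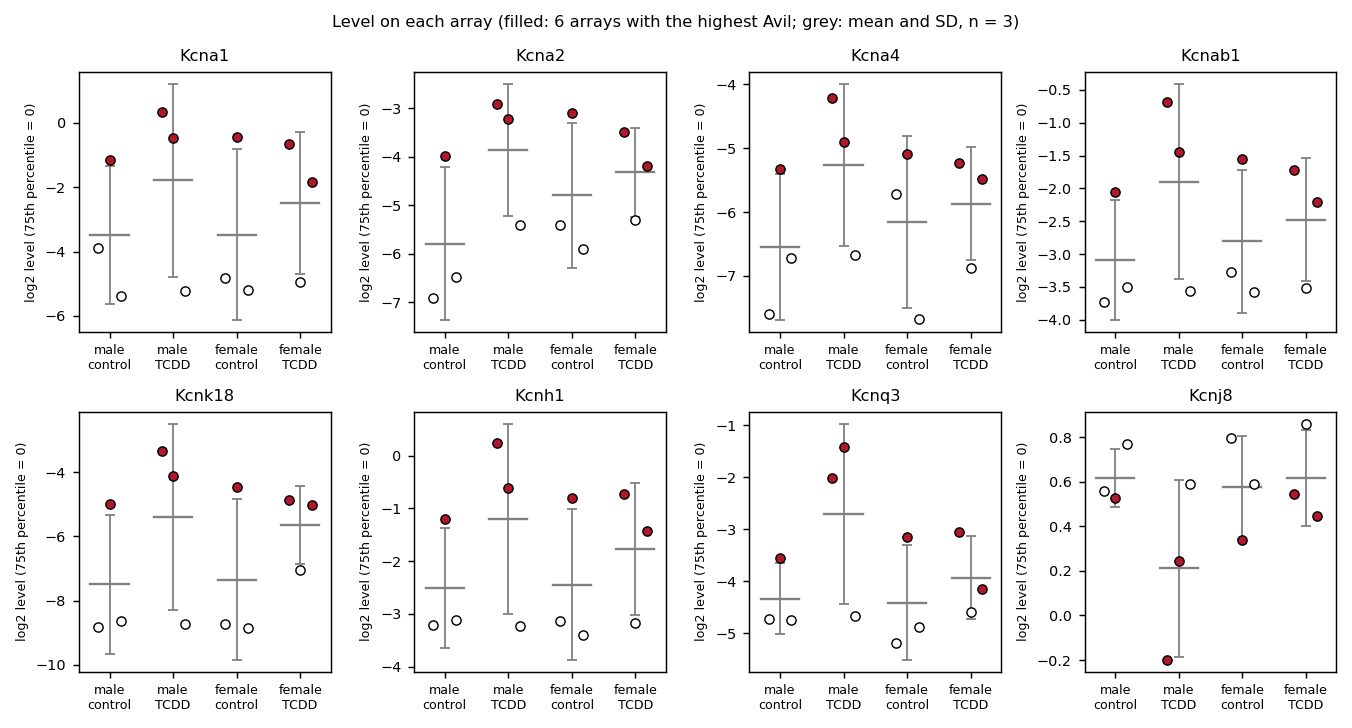
Log2 level on each array (vertical axis, 0 at the array's 75th percentile) for 8 potassium channel genes in the 4 groups of 3 arrays. Filled points are the 6 arrays of highest Avil and grey marks are the group mean and SD. Filled points lie above all open points for Kcna1, Kcna2, Kcna4, Kcnab1, Kcnk18, Kcnh1 and Kcnq3, and below them for Kcnj8.

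The leak channel genes divided. Kcnk18, which encodes TRESK, a channel of sensory ganglia, was well above background on exactly the 6 higher-Avil arrays. Its level was -8.82, -5.01 and -8.65 in control males and -3.35, -4.12 and -8.72 in their TCDD group. Female values were -8.72, -4.47 and -8.86 without and -4.86, -7.06 and -5.02 with TCDD. The values under -7 were not well above background. Kcnk4 was well above background on 4 of the 6, all from exposed fetuses, and on none of the rest. As it was kept only through exposed arrays, its TCDD difference is not read. Kcnk10, the second TREK gene, lay between -4.37 and -3.06 on the 6 arrays, clear of the rest at -7.23 to -5.78.

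The other 8 leak genes that were kept did not separate the arrays. Kcnk5, known for an alkaline-activated leak current, lay between 0.19 and 1.89, and Kcnk1 and Kcnk6, of the TWIK type, between -0.94 and 0.31 and between -1.20 and 0.03. Kcnk3, an acid-inhibited leak channel, lay between -3.20 and -2.04.

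For the 2 leak genes that changed colour most at the line and whose transcription start RefSeq gives, the 250 bases before the start (GRCr8, RefSeq) are shown to place them beside the array pattern. Capitals mark a GCGTG match, the core of the aryl hydrocarbon receptor element, in Kcnk18 (as its reverse complement CACGC), and a GGGCGG match in Kcnk4.
Kcnk18 (chr1:268360488-268360737, plus strand): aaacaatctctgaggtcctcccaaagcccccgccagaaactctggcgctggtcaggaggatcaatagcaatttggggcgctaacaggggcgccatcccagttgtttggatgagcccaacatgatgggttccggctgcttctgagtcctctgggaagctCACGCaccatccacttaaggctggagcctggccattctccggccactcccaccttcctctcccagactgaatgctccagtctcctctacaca
Kcnk4 (chr1:213555862-213556111, minus strand): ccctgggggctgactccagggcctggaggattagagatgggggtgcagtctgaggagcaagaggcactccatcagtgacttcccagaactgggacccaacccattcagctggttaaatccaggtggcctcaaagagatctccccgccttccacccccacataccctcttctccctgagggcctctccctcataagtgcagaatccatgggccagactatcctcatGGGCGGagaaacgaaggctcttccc
The table of promoters (250 bases before to 50 after a start) held 14 of the 20 genes higher on the 6 arrays and 37 of the other 58. GCGTG, searched on both strands, was in 6 of the 14, in 16 of the 37 and in 31.1% of 27457 RefSeq promoters. GGGCGG, the box bound by Sp1, was in 9 of 14, in 19 of 37 and in 34.9%. The letters TTCAGCACC, part of the element bound by the neuronal repressor Rest, were in 0 of 14, in 1 of 37 and in 0.379%. These are matches of letters in a window and no more.

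Of the M-current genes, Kcnq3 lay between -4.15 and -1.42 on the higher-Avil arrays and between -5.19 and -4.58 on the rest. The probe named Kcnq5l, which the reference calls Kcnq5, separated the arrays by a difference of medians of 0.45. This separation is narrow, with -6.43 the lowest value on the higher-Avil arrays and -6.45 the highest on the rest. The probe was well above background on 4 of the higher-Avil arrays and 1 of the rest. Kcnq1, an epithelial and cardiac member, lay between -2.85 and -1.79. In the Kv10 to Kv12 group, Kcnh1, which encodes the ether-a-go-go channel, was -3.22, -1.21 and -3.12 on the control and 0.23, -0.61 and -3.22 on the exposed male arrays, and -3.13, -0.81 and -3.40 on the control and -0.74, -3.16 and -1.42 on the exposed female arrays (replicates 1 to 3 each). Kcnh7, an erg channel, was well above background on 4 of the higher-Avil arrays and on none of the rest. The erg channel genes Kcnh2 and Kcnh6, whose current is known in pituitary lactotrophs, had medians 0.88 and 0.61 higher on the 6 arrays, with levels that overlapped the rest.

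Among activity-gated channels, Kcnt1, a sodium-activated channel, had a difference of medians of 1.36, and Kcnn1, a small-conductance calcium-activated channel, 0.89. Kcnn2 and Kcnn3, of the same family, did not separate the arrays, with differences of 0.59 and -0.08. The auxiliary genes Kcnab1 and Kcnab2 are cytoplasmic partners of Kcna channels. Kcnab1 lay between -2.20 and -0.68 against -3.73 and -3.28. Kcnab2 lay between -5.54 and -4.18 against -6.76 and -6.06, and only 1 lower-Avil array had it well above background. Kcnmb4, the neuronal beta subunit of the large-conductance channel, differed by 0.60. Kcns3, a silent subunit, differed by 0.73.

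Of 11 inward rectifier genes 1 lay wholly above and 1 wholly below, beside 7.91% and 7.85% of all genes, and the others overlapped. Kcnj12, a strong rectifier, lay between -4.29 and -2.88 on the higher-Avil arrays and between -5.83 and -5.16 on the rest. Kcnj8 encodes the pore of the ATP-sensitive channel of pericytes and vascular smooth muscle. It was 0.56, 0.53 and 0.77 in control males against -0.20, 0.24 and 0.59 with TCDD. In females it was 0.80, 0.34 and 0.59 against 0.55, 0.86 and 0.45. Its highest value on the 6 arrays, 0.55, lay next to its lowest on the rest, 0.56, so this separation is narrow. The sulfonylurea receptors that join ATP-sensitive pores, Abcc8 and Abcc9, did not separate the arrays. Of 10 pericyte and smooth muscle markers, 0 separated them.

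Partners of these channels outside the Kcn names were taken from a list of 20, of which 16 were kept. Higher on each of the 6 arrays were 7: Dpp6 and Dpp10, auxiliary proteins of A-type channels; Cntnap1, Ank2, Ank3, Sptbn4 and Adam22, which anchor or cluster channels at axons. Dpp10 lay between -6.61 and -4.60 on the 6 arrays and between -8.73 and -8.46 on the rest, where it was not well above background. Rest, which represses neuronal genes, lay between -3.14 and -2.32 over all arrays and did not separate them. None of the 16 passed the TCDD test over both sexes.

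A gene's probes did not always behave alike. Of 18 genes with more than 1 kept probe, 15 had probes that all placed the arrays in the same way (apart or overlapping), and 3 did not: Kcnh2, Kcnma1 and Kcnq3. The dimmer Kcnq3 probe, A_64_P094322, overlapped, at -7.88 to -5.56 on the higher-Avil arrays and -8.87 to -4.96 on the rest. It was well above background on 4 arrays. The dimmer Kcnh2 probe, A_64_P066081, stood apart, at -2.77 to -1.97 against -3.58 to -2.98. Kcnma1 encodes the large-conductance calcium-activated channel that shapes bursts in pituitary cells. Its brightest probe, A_64_P105078 at chr15:950227-950286, lay between -3.41 and -2.93 on all 12 arrays, with a difference of medians of 0.07. The probe printed above, A_44_P259947, lay between -4.29 and -3.44 on the 6 higher-Avil arrays and between -5.34 and -4.57 on the rest, and the remaining one, A_64_P131632, overlapped with a difference of 0.31. Which transcripts each probe reads was not tested. The probes of Kcnk2 also disagreed in direction: the brightest, A_43_P13418, had a difference of -0.40, the one printed above, A_64_P053471, of 0.42, and A_64_P114986 of -0.46, all with overlap.

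**Figure D3:**
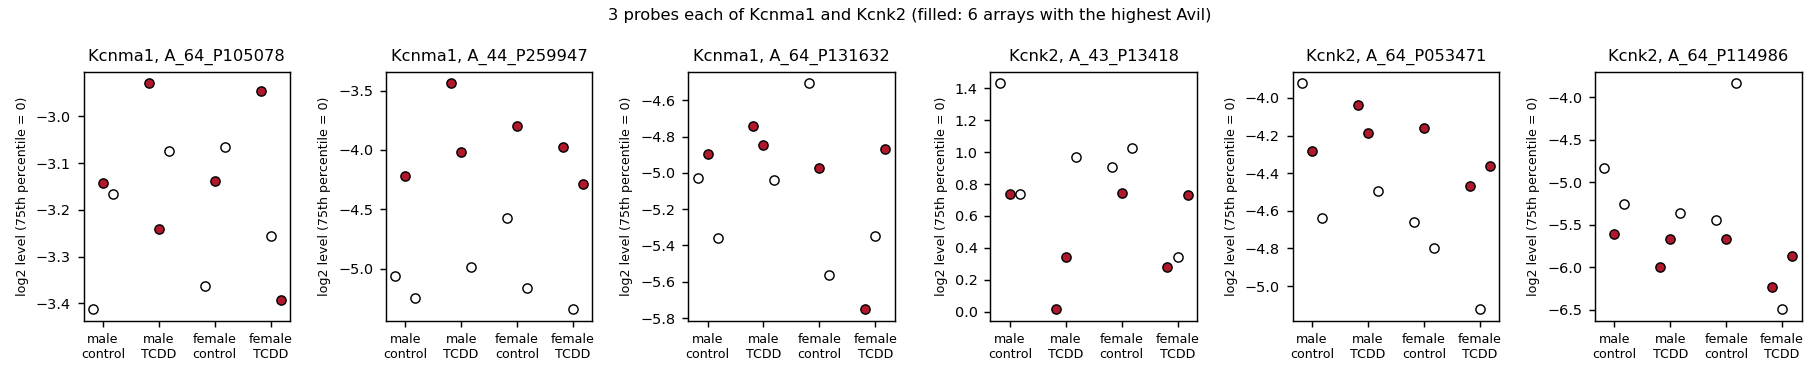
Log2 level on each array (vertical axis, 0 at the array's 75th percentile) for the 3 kept probes of Kcnma1 and of Kcnk2 in the 4 groups of 3 arrays; filled points are the 6 arrays of highest Avil. Filled points lie above all open points in the panel of Kcnma1 probe A_44_P259947 and in no other panel.

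For maternal TCDD, none of the 78 genes passed an adjusted p of 0.05 in limma in either sex or over both. Of all 19347 genes, the share that passed was 0.0103% for males, 0.0103% for females and 0.0207% with the sexes averaged. The smallest adjusted p of a potassium channel gene was 0.51 (males), 1 (females) and 0.67 (sexes averaged). At an unadjusted p below 0.05 there were 9 genes in males (11.5% against 9.34% of all genes), 4 in females (5.13% against 2.68%) and 6 over both sexes (7.69% against 6.46%). The median difference over both sexes was 0.000626, with 39 genes above and 39 below 0, beside -0.02 over all genes. The median absolute difference was 0.23, against 0.12 over all genes.

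Of the 6 exposed arrays 4 were among the 6 of highest Avil, and of the 6 controls 2 were, so the way the 20 genes were picked largely fixes the sign of their TCDD difference over both sexes. That difference was positive for all 20, with a median of 0.79, and its sign supports nothing. Of the other 58 genes 39 had a negative difference, with a median of -0.12. On the 6 arrays of lower Avil alone, 12 of the 20 differences were positive, with a median of 0.03, and 36 of the 58 were negative, with a median of -0.08. That comparison has 1 exposed array of each sex, so it assumes that a lone array varies like the control arrays. With the Avil level as a covariate the medians were 0.05 for the 20 and -0.08 for the 58. For Kcnk18 the difference was 1.90 (SE 1.17) on 12 arrays and 0.87 on the 6. None of the 6 had Kcnk18 well above background, so the second value is between background readings and is not read.

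**Figure D4:**
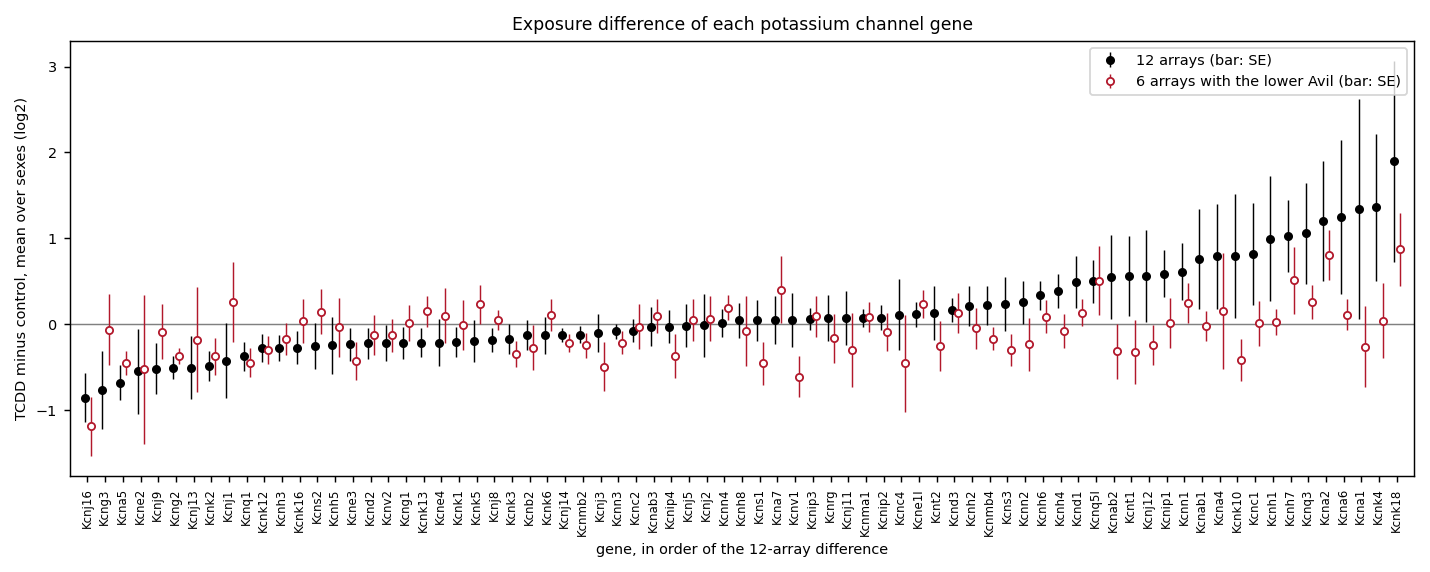
TCDD minus control, averaged over the sexes (vertical axis, log2), for 75 of the 78 genes in order of the 12-array difference. Filled points are from 12 arrays and open points from the 6 arrays of lower Avil, with bars of 1 SE. The genes at the right, from Kcnk18 down to Kcnab2, lie nearer 0 among the open points, while Kcnq5l does not (0.50 and 0.51). Kcnk4, Kcnh7 and Kcnq5l were kept only through exposed arrays, so their points are a description. On the arrays of lower Avil, Kcnk18, Kcnk4 and Kcnh7 were well above background on none and Kcnq5l on 1. Their open points are therefore limited by background. None of the 12-array differences passed the test.

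The 4 genes with the smallest p over both sexes, Kcng2, Kcna5, Kcnj16 and Kcnk2, had negative differences, and none passed the test. Pituitary endocrine markers leaned the same way: 21 of 25 had a negative difference over both sexes. Their median was -0.40 beside -0.02 over all genes, and 0 of the 25 passed the test. Their mean level was -0.80, -0.88 and -0.63 in control males, -1.79, -1.06 and -0.69 in exposed males, -0.42, -0.91 and -1.04 in control females and -1.31, -1.15 and -1.21 in exposed females. It was thus apart in females and overlapped in males, with male TCDD 1 lowest. On the 6 higher-Avil arrays, 4 of them exposed, this mean lay between -1.79 and -0.88, and on the rest between -1.15 and -0.42. The parts of exposure and of the Avil signal in this lean were not tested, nor was its part in the potassium channel values. Kcng2, a silent subunit that changes the gating of Kv2 channels, was -0.83, -0.88 and -0.74 in control males and -1.76, -1.34 and -0.84 in their TCDD group. Female values were -0.81, -1.0 and -0.81 without and -1.49, -1.49 and -1.19 with TCDD. The female groups did not overlap, while male TCDD 3 lay within the male controls. Means were -0.82 ± 0.07 and -1.31 ± 0.46 in males, and -0.87 ± 0.11 and -1.39 ± 0.17 in females (SD, n = 3). The difference over both sexes was -0.51 (SE 0.14, adjusted p 0.67 from limma) and was -0.37 (SE 0.10) on the lower-Avil arrays.

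Kcna5 was -3.33, -3.32 and -3.25 on the control and -4.35, -4.00 and -3.24 on the exposed male arrays, and -3.07, -3.79 and -3.19 on the control and -4.44, -4.07 and -3.90 on the exposed female arrays (replicates 1 to 3 each). Here too the female groups were apart and male TCDD 3 lay with the controls. The difference was -0.68 (SE 0.20, adjusted p 0.67 from limma), and -0.45 (SE 0.14) on the lower-Avil arrays. Kcnk2, the mechanically gated TREK channel, was 1.43, 0.74 and 0.74 in control males against 0.02, 0.34 and 0.97 with TCDD. In females it was 0.91, 0.75 and 1.03 against 0.28, 0.34 and 0.73. Its difference was -0.48 (SE 0.18, adjusted p 0.67 from limma), again with the female groups apart and the male groups overlapping. That value depends on the probe, as the other kept Kcnk2 probes gave -0.03 (A_64_P053471) and -0.83 (A_64_P114986). The 3 slides of 4 arrays each held male controls with male TCDD 1, male TCDD 2 and 3 with female controls 1 and 2, and female control 3 with the exposed females. With slide as a block the differences were -0.76 for Kcng2, -0.76 for Kcnk2 and about -1.0 for Kcna5 (adjusted p 0.17, 0.18 and 0.18 from limma). For Kcng2 the difference was -0.94 within the slide of male TCDD 1 and -0.58 within that of the exposed females. The first rests on 1 exposed array, that of highest Avil, and the second on 1 control array. In males without the higher-Avil arrays the Kcng2 difference was -0.06, also with 1 exposed array.

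Kcnj16, an inward rectifier of epithelia and glia, was well above background on 3 arrays only. Its control males (2 of 3 arrays) were at least 1.71-fold brighter than its exposed males, none of which was well above background and which were set at the lowest signal that was. The others among the 10 smallest p values were Kcnq1 (-0.37) on the lower side and Kcnh7 (1.03), Kcnip1 (0.59), Kcnq5l (0.50), Kcnh6 (0.34) and Kcnh4 (0.39) on the higher side. On the lower-Avil arrays these became -0.45, 0.51, 0.02, 0.51, 0.09 and -0.08. There Kcnh7 was well above background on no array and Kcnq5l on 1, so their values of 0.51 are limited by background. A dimmer kept probe of Kcnq1, A_64_P094313, had a difference of 0.17 on all arrays, opposite in sign. Kcnh7 and Kcnq5l were kept only through exposed arrays, so their differences are a description.

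**Figure D5:**
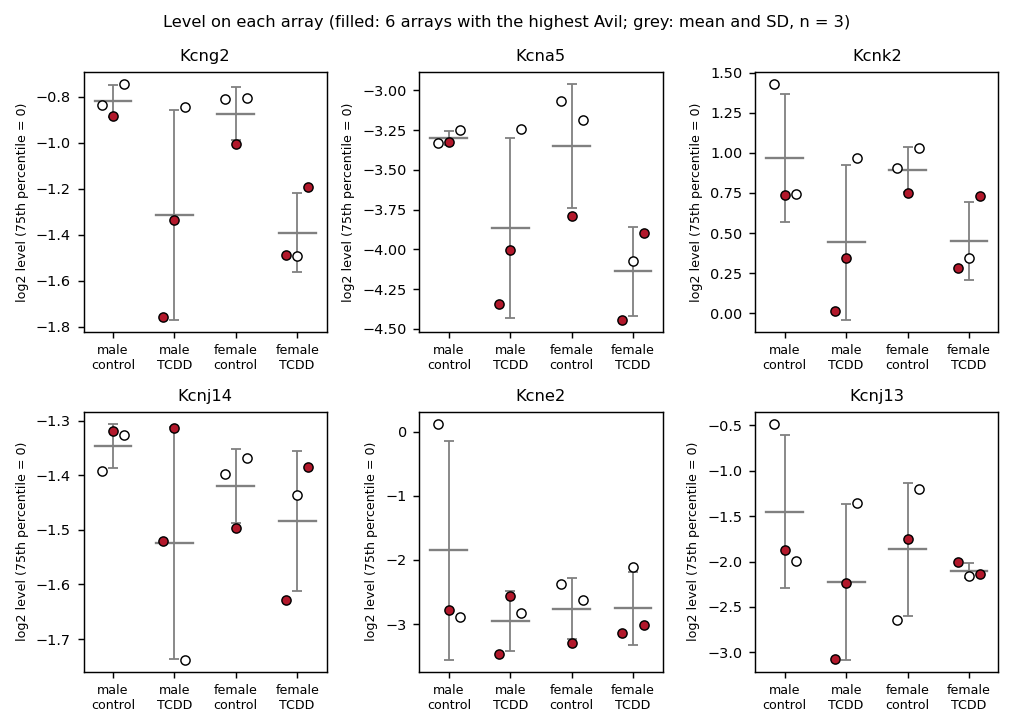
Log2 level on each array (vertical axis, 0 at the array's 75th percentile, scales differ between panels) for 6 potassium channel genes in the 4 groups of 3 arrays. Filled points are the 6 arrays of highest Avil, grey marks the group mean and SD. For Kcng2, Kcna5 and Kcnk2 the exposed females lie below the control females, Kcnj14 spans 0.42 over all arrays, and Kcne2 and Kcnj13 are highest on male control 1.

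Counts of groups that did not overlap were also small. In males 3 genes were higher in all exposed arrays than in all controls and 5 were lower, against 8.39% and 6.03% of all genes. In females 0 were higher and 6 were lower, against 1.45% and 5.5%. None of the 78 was higher in both sexes, lower in both or opposite in the sexes, against 0.3%, 0.377% and 0.382% of all genes. The 3 higher in males were Kcnip2, Kcnmb2 and Kcnh8, and the 5 lower included Kcnj16, Kcnk16 and Kcnk13. The 6 lower in females were Kcnc2, Kcna5, Kcns1, Kcng2, Kcnk1 and Kcnk2.

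The TCDD effect was not shown to differ between the sexes for any of the 78 genes, as the smallest adjusted p of the interaction was 0.88 in limma, and 0 of all 19347 genes passed (0%). At an unadjusted p below 0.05 there were 6 of the 78, against 4.46% of all genes. The lowest unadjusted p was that of Kcns1, a silent subunit whose TCDD difference was -0.74 in females and 0.83 in males, a difference between the sexes of -1.57 (SE 0.47, unadjusted p 0.007). Its control females (2 of 3 arrays well above background) were at least 1.47-fold brighter than its exposed females. Kcnmb2, the inactivating beta subunit of the large-conductance channel, was -0.39, -0.39 and -0.58 in control and -0.12, -0.38 and -0.33 in exposed males. It was -0.16, -0.18 and -0.51 in control and -0.46, -0.98 and -0.65 in exposed females. The sexes differed by -0.58 (SE 0.21, adjusted p 0.88 from limma). For male against female controls, none of the 78 passed either, against 0.0103% of all genes, and the smallest adjusted p was 0.94. At an unadjusted p below 0.05 there were 0 of the 78, against 5.5% of all genes.

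Some genes varied little over the 12 arrays. Among them were Kcnj14, an inward rectifier, with a range of 0.42, Kcnma1 by its brightest probe with 0.48, Kcnn3 with 0.50 and Kcnip3, a calcium-binding partner of A-type channels, with 0.72.

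One gene stood apart on a single array. Kcne2, an auxiliary subunit that is abundant in choroid plexus and stomach, was 0.12 on male control 1 and between -3.47 and -2.11 on the other 11. It was chosen after its values were seen. The gap of 2.23 to the next array was the 7th largest of all genes on that array, where 34 genes lay more than 1 above the next. Kcnj13, the inward rectifier of choroid plexus and retinal pigment epithelium, was -0.48 there and between -3.07 and -1.20 elsewhere. On the same array Ttr, the choroid plexus transport protein, was 6.44 against at most 1.71, and the mean of 11 choroid plexus and ependyma genes was -0.46 against -2.63 to -2.03. That list was written after the arrays were seen, and the part of such tissue in the Kcne2 level was not tested. Without Kcne2's high array, the male controls were -2.78 and -2.89, within the range of the exposed males, -3.47 to -2.56.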

How the data were processed

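Total RNA was labelled with Cy3 and hybridised to whole rat genome arrays, per the labels' protocols. The authors deposited scanner files whose spot intensity values are linear, written by Agilent Feature Extraction 10.7.1.1 per the file headers; the submitters' processing notes name 9.5.1.1. Their deposited value table holds intensity values whose columns share a median of 83.5 and rank as the scanner values do (Spearman 1); quantile normalization was inferred from this, and no direction applies to one colour.

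Control and outlier spots were left out, and levels were log2 processed intensity minus the array's 75th percentile. Spots of a probe were averaged, and kept probes had at least 10 values. Of 30367 probes, 18006 were named by accession, and 117 of the 129 Kcn probes. Another 3 probes, of Kcnk7 and Kcnip2 by the reference, carry other names in the files and were outside the rule. Group means were fitted in limma 3.58.1 (R 4.3.3) to all 12 arrays, with Benjamini-Hochberg adjustment over 19347 genes, and the procedure was tested on simulated data. Bounds ("at least") set each dim array at its lowest signal well above background, or at the probe's own where higher. Slides held 4 arrays each; the number of arrays limits the precision.

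Members and lists were chosen with earlier results of these data known. Genes named with values were those of smallest p (10 over both sexes, 5 in other contrasts), those apart with Avil (up to 15 higher and 10 lower), the 5 of smallest range, and channels listed from pituitary or sensory neurons; others are named where a count is spelled out. Same-numbered samples of the 2 control groups deviated together (correlations 0.13, 0.75 and 0.35), which the rule used takes as a pairing. The replicate block called 0 of the 78 genes there. In each control group replicate 2 was the only array of higher Avil, so a pairing of samples cannot be told apart from that signal. Other groups were not paired. Alternatives were background correction, normalization, probe filter and choice, slide, replicate block, variance model, Avil and leaving out arrays. Some genes of the set enter the counts but are not reported here by name.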

Additional observations from a re-analysis of the deposited data

How the results depend on the processing

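The 20 genes higher on the 6 arrays of highest Avil became 12 under normexp (against 6.75% of all genes) and 11 where every array had to be well above background. Leaving out each array in turn gave 20 to 23. A gene apart on all arrays stays apart when 1 is left out, so these counts, above or below, could not fall. The single gene below, Kcnj8, became 1 to 5 genes: 3 without male TCDD 2, 2 without male TCDD 3, 3 without female control 1, 5 without female TCDD 1 and 3 without female TCDD 2. No alternative called a gene in females, over both sexes, for the sex difference or between controls, and 1 did in males. Array quality weights called 34 there (24 higher, 10 lower), when 26.9% of all genes were called and male TCDD 2 had a weight of 8.89, the next being 2.26; a REML estimate of the weights, tried after seeing the data, did not converge and was not used. Among these were Kcnj16 (-0.92), Kcnk13 (-0.78), Kcnh6 (0.73), Kcng2 (-0.53) and Kcnk16 (-1.14). At an unadjusted p below 0.05, slide as a fixed block gave 23 genes over both sexes (29.5% of the members against 24.5% of all genes; 6 without it) and 21 in males (26.9% against 27.6%; 9 without it), and slide 1 alone, with 1 exposed array, gave 38 in males (48.7% against 35.4%) and called 276 of all genes but none of the members. The replicate block called 0 genes in every contrast. Of the values of named genes under alternatives, 1422 kept direction and side of the threshold, 61 changed sign and 5 passed the threshold, all 5 under array weights; no named gene was called at the outset, so no called direction could reverse. Genes near background, such as Kcnk4, Kcnh7 and Kcnj16, are limited by signal.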

Other observations

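Other excitability genes were read beside the potassium channels from lists of sodium, calcium and pacemaker channels. Of 13 voltage-gated sodium channel genes kept, 6 were higher on each of the 6 arrays of highest Avil than on the rest: Scn2a, Scn7a, Scn9a, Scn10a, Scn11a and Scn3b. Scn9a, Scn10a and Scn11a also belong to the sensory ganglion list. Scn10a and Scn11a, which carry the tetrodotoxin-resistant current of nociceptors, lay between 1.06 and 2.50 against -5.56 and -3.08, and between 0.26 and 1.54 against -3.29 and -2.50. Over both sexes all 13 had a positive TCDD difference, with a median of 0.53, and 0 passed the test.

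Of 16 voltage-gated calcium channel genes, 6 were higher on those arrays (Cacna1b, Cacna1h, Cacna2d3, Cacnb1, Cacnb3 and Cacnb4) and 1 was lower, Cacna1g. Of the 4 pacemaker genes, Hcn3 and Hcn4 were higher. Peripheral glia markers were higher in 6 of 11, and their mean lay between -1.59 and -0.21 against -2.80 and -2.36. The genes counted as higher in these sodium, calcium, pacemaker and glia lists were high on the same arrays as 20 of the 78 potassium channel genes. Of all genes, 7.91% were higher on those arrays in this way. The remaining genes of the 4 lists, except Cacna1g, overlapped, as did most of the 78. The part of these sets in the potassium channel levels was not tested.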
